A study of Gallus gallus with 89 samples.

Results

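The respiratory chain of the mitochondrion is built from subunits of 2 genomes, and 79 of the 13823 gene rows of the chick single-cell count table encode its protein subunits. Of these, 66 are nuclear genes, taken by symbol (NDUFA, NDUFB, NDUFC, NDUFS and NDUFV for complex I, SDHA to SDHD for complex II, UQCR for complex III, COX4 to COX8 for complex IV and ATP5 for ATP synthase), and 13 are the protein-coding genes of mitochondrial DNA (ND1 to ND6, ND4L, CYTB, COX1, COII, COX3, ATP6 and ATP8). The rule used symbols and no measured value. A row that the rule takes need not be a subunit: NDUFA4 carries a complex I symbol but is known as a subunit of complex IV, COX7A2L is known as a factor of respiratory supercomplexes, and ATP5S is a coupling factor that lies outside the core enzyme.

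Complexes I to IV carry electrons from NADH and succinate to oxygen and, except for complex II, pump protons out of the mitochondrial matrix, and ATP synthase uses the returning protons to make ATP. The nuclear subunits are translated in the cytosol and imported, whereas the mitochondrial ones are cut from long transcripts of the circular genome, which is present in many copies per cell. Complex II is the only complex with no mitochondrially encoded subunit. Early embryonic cells are known for strong glycolysis beside respiration.

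The samples were 89 single cells from untreated wild-type chick embryos of embryonic day 1.5 (stage 10). Grafts of the amniogenic somatopleure, the double layer of ectoderm and mesoderm that gives rise to the amnion, were taken from more than 15 embryos and dissociated with trypsin, and cells were captured on Fluidigm C1 chips and made into SMARTer and Nextera XT libraries. No label ties a cell to an embryo, so the 89 cells form 1 pooled sample: every SD below is a spread over cells, no p-value was computed, and a difference between groups of cells has no replicate check. The titles carry the prefix X09 in 58 cells and X29 in 31 cells, and each comparison was also made within each prefix.

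Reads in gene rows ran from 328645 to 2381723 per cell (median 1464140), and cells had between 2394 and 9015 genes with a read (median 5580). The 2 groups compared were 27 cells in the ectoderm state, which had at least 2 of CDH1, TFAP2A and CLDN3 at 10 CPM or more (reads per 1000000 reads in gene rows) (14 X09 and 13 X29), and the 62 other cells (44 X09 and 18 X29). EPCAM, an epithelial adhesion gene that the rule did not use, was 16.5-fold higher in ectoderm-state cells than in other cells, whereas the lateral mesoderm genes HAND2 and GATA6 were at 0.15 and 0.09 of the level in other cells. The keratin genes KRT7, KRT18 and KRT19 did not separate the groups, at 0.83, 0.80 and 1.43 times the level of other cells. The median spike-in share of reads was 4.70% in ectoderm-state cells and 5.22% in other cells.

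The summed level of the 66 nuclear members was narrowly spread over the cells, and that of the 13 mitochondrial members was not. The nuclear set had a lowest value of 13225 CPM, a median of 29953 CPM and a highest value of 50497 CPM, with the middle of the distribution between 27367 and 31910 CPM (quartiles). The mitochondrial set had a lowest value of 637 CPM, a median of 52745 CPM and a highest value of 413741 CPM, with quartiles of 34299 and 79847 CPM. The SD over the mean was thus 0.167 for the nuclear set and 0.918 for the mitochondrial set, and the highest cell was 3.82 times the lowest in the nuclear set and 649 times the lowest in the mitochondrial set.

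Since a read taken by mitochondrial DNA is a read not left for nuclear genes, the nuclear set was also expressed as CPM of nuclear reads. On that scale it ran from 17951 to 50887 CPM with a median of 31552 CPM, and its SD over the mean was 0.149. Both summed levels are shares of a library and not amounts of RNA per cell.

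**Figure D1:**
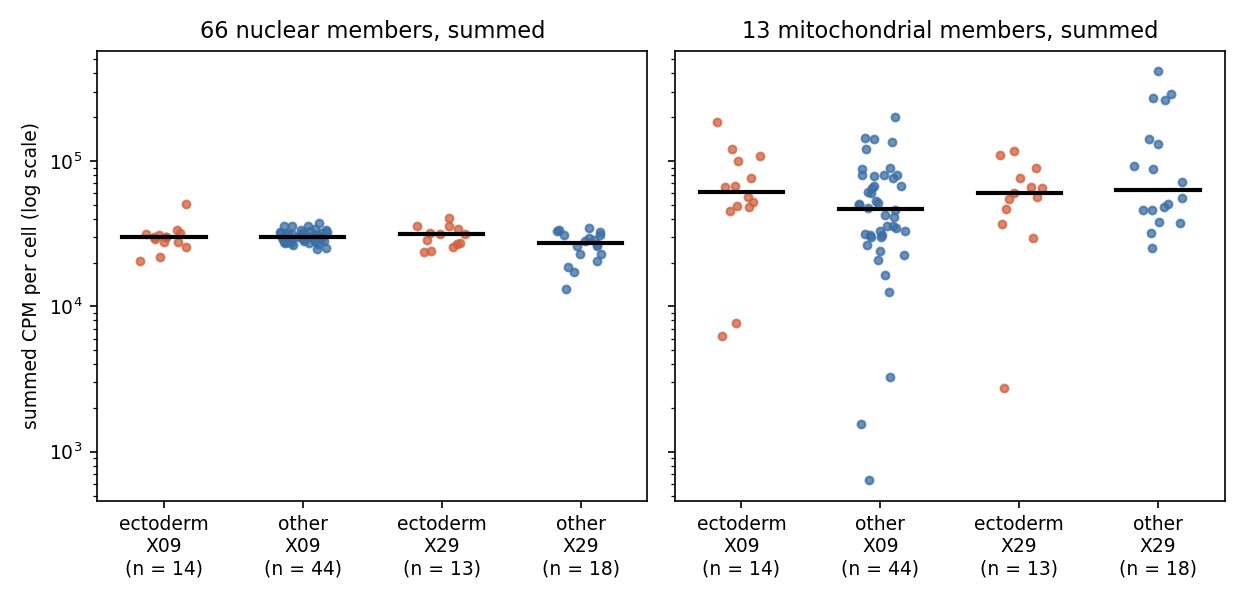
Summed CPM per cell (log scale) of the 66 nuclear members (left) and the 13 mitochondrial members (right) in ectoderm-state cells and other cells of the X09 and X29 titles; each point is a cell and each bar the group's median. The nuclear medians lie between 27439 and 31224 CPM in all 4 groups, whereas single cells of the mitochondrial set lie between 637 and 413741 CPM.

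The other cells are defined only by lacking the ectoderm state and are not 1 germ layer: the mesoderm markers summed to a median of 252 CPM in ectoderm-state cells and 1998 CPM in other cells, but X29_C64 among the other cells had none of them. The nuclear set stood at nearly the same level in both groups. It was lowest at 20610, median 30133 and highest at 50497 CPM in ectoderm-state cells, against 13225, 29695 and 37643 CPM in other cells. The groups overlapped over most of their range, and the ratio of medians was 1.01. Within X09 the medians were 30128 CPM in ectoderm-state cells and 30186 CPM in other cells, and within X29 they were 31224 CPM in ectoderm-state cells and 27439 CPM in other cells, a ratio of 1.14.

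The mitochondrial set was lowest at 2742, median 60472 and highest at 185838 CPM in ectoderm-state cells, against 637, 49862 and 413741 CPM in other cells. Median and mean pointed in opposite directions, with a ratio of medians of 1.21 and a ratio of means of 0.898. Within X09 the medians were 61429 CPM in ectoderm-state cells and 47004 CPM in other cells (ratio 1.31). Within X29 they were 60472 CPM in ectoderm-state cells and 63187 CPM in other cells (ratio 0.957), and the ratio of means was 0.526. The spike-in share within X29 averaged 4.72% in ectoderm-state cells and 8.03% in other cells, and its part in that ratio was not tested. The differences between medians were small beside the spread over all cells of each group. That spread had an SD over the mean of 0.592 in ectoderm-state cells and 1.01 in other cells. The X29 means lay further apart, at 62459 CPM in ectoderm-state cells and 118785 CPM in other cells.

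Gene by gene, no member was called between the groups. A gene was called when the ratio of its mean CPM in ectoderm-state cells to that in other cells, with 1 CPM added to each mean, was at least 1.5 or at most 0.667 over all cells and also within X09 and within X29. By this rule 0 of the 66 nuclear and 0 of the 13 mitochondrial members were called, whereas 21.9% of the 7651 genes with a mean of at least 10 CPM were, 10.3% higher and 11.6% lower in ectoderm-state cells. Those genes are mostly of lower level, with a median mean of 45.9 CPM against 378 CPM for the nuclear members. They also spread more over cells, with a median SD over the mean of 1.58 against 0.424. The share called among genes of like level was not computed, so the 2 shares are not on a par. The ratios of the nuclear members ran from 0.699 to 1.46 with a median of 1.01, and 34 of 66 were above 1. The ratios of all genes tested had quartiles of 0.708 and 1.31 and a median of 0.962.

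Direction was shared between the prefixes by 37 of 66 nuclear members (56.1%), 22 of them higher in ectoderm-state cells and 15 lower, against 59.4% of all genes tested. For the mitochondrial members the count was 0 of 13: all 13 had a ratio above 1 in X09 (1.02 to 2.62) and all 13 a ratio below 1 in X29 (0.457 to 0.820). The 13 rose and fell together over cells, with a median Spearman's rho of 0.862 over their 78 pairs. They are thus not 13 separate outcomes, and their count cannot be set beside the share of all genes. The X29 means include 4 parting cells, described below, 3 of them other cells of high mitochondrial reads and 1 an ectoderm-state cell of low ones. The X09 means include 5 parting cells, all of low mitochondrial reads. Without the parting cells the ratio of means of the summed mitochondrial set was 1.35 within X09 and 0.863 within X29. The ratio of medians was then above 1 in both prefixes, at 1.34 within X09 and 1.26 within X29.

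**Figure D2:**
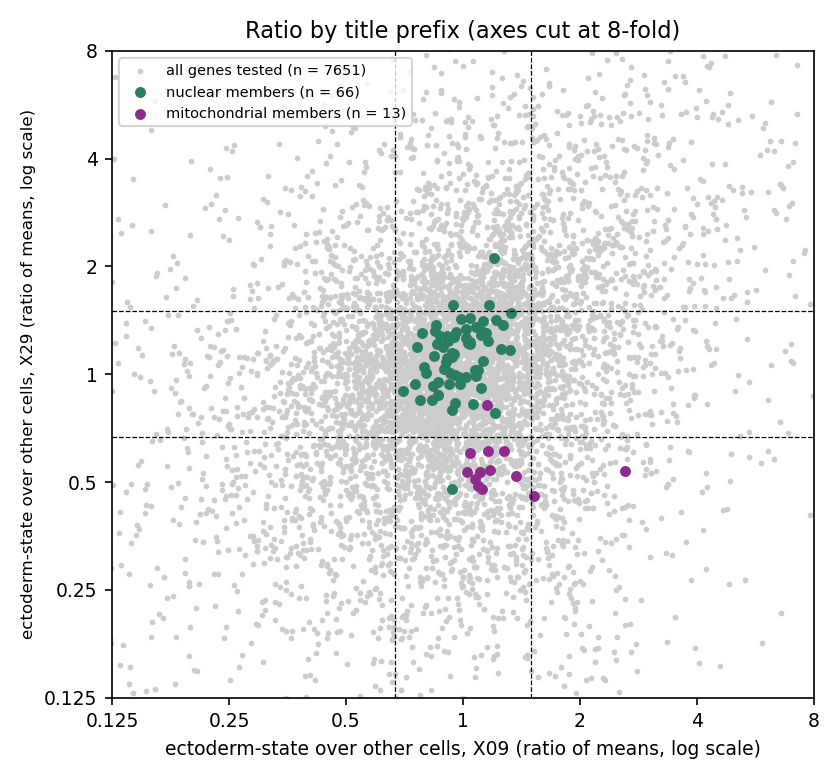
Ratio of mean CPM in ectoderm-state cells to that in other cells within X09 (horizontal, log scale) and within X29 (vertical, log scale), for the 66 nuclear members, the 13 mitochondrial members and all 7651 genes tested; dashed lines mark a ratio of 1.5 and its inverse. The 13 mitochondrial members all lie right of 1 and under 1, and no member lies in a corner where a gene would be called.

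Complex I, the NADH dehydrogenase, had 32 nuclear rows. Their summed level was 9688 CPM in ectoderm-state cells and 9509 CPM in other cells (medians). The rows that drew the most reads were NDUFA4, NDUFB5 and NDUFA8, the last an accessory subunit facing the intermembrane space. NDUFB5, an accessory subunit of the membrane arm, was lowest at 233, median 550 and highest at 1650 CPM in ectoderm-state cells, against 0, 572 and 1086 CPM in other cells, so the groups overlapped and the ratio of means was 1.04. NDUFA8 had medians of 504 CPM in ectoderm-state cells and 518 CPM in other cells, with a ratio of means of 1.21 within X09 and 0.78 within X29.

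The complex I row detected in the fewest cells was NDUFS1, the largest of the iron-sulphur subunits of the peripheral arm, which had at least 10 CPM in 83.1% of cells. It ranged from 0 to 871 CPM in ectoderm-state cells (median 143) and from 0 to 817 CPM in other cells (median 172). NDUFA12, an accessory subunit singled out after its values were seen, came closest to a call on the higher side: it was lowest at 124, median 273 and highest at 787 CPM in ectoderm-state cells, against 0, 195 and 604 CPM in other cells. Its ratio of means was 1.42, with 1.33 within X09 and 1.49 within X29.

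NDUFB8, an accessory subunit of the membrane arm that is known to be lost early when complex I fails to assemble, had the narrowest spread of the nuclear members, with an SD over the mean of 0.297. It was also singled out after its values were seen. It was lowest at 118, median 425 and highest at 706 CPM in ectoderm-state cells, against 202, 431 and 813 CPM in other cells.

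Complex II, succinate dehydrogenase, which also serves the tricarboxylic acid cycle, varied more from cell to cell in its nuclear rows than the nuclear rows of the other complexes. Its summed level had an SD over the mean of 0.397, against 0.178 for complex I, 0.20 for complex III, 0.23 for complex IV and 0.207 for ATP synthase, each over nuclear rows alone. Complex II had only 4 rows, with summed medians of 1047 CPM in ectoderm-state cells and 953 CPM in other cells, below those of the other complexes. The part of this low level and row count in the wider spread was not tested. SDHD, a membrane anchor, was detected in 97.8% of cells and was lowest at 41.6, median 455 and highest at 1321 CPM in ectoderm-state cells, against 0, 485 and 1479 CPM in other cells. SDHB, the iron-sulphur subunit, was lowest at 9.34, median 359 and highest at 968 CPM in ectoderm-state cells, against 0, 260 and 879 CPM in other cells.

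SDHB had the highest ratio of means among the nuclear members, 1.46, but it was 1.20 within X09 and 2.11 within X29, and the groups overlapped over nearly their whole range. SDHA, the flavoprotein that oxidises succinate, was detected in 67.4% of cells, with medians of 116 CPM in ectoderm-state cells and 41.7 CPM in other cells, while its means gave a ratio of 1.17. SDHC, the other membrane anchor, was detected in 66.3% of cells, with medians of 13.8 CPM in ectoderm-state cells and 15.9 CPM in other cells. SDHA reached 10 CPM in 70.4% of ectoderm-state cells and 66.1% of other cells, and SDHC in 70.4% of ectoderm-state cells and 64.5% of other cells.

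Complex III, which passes electrons from ubiquinol to cytochrome c, had 8 nuclear rows, each detected in at least 96.6% of cells. Its summed medians were 4088 CPM in ectoderm-state cells and 4047 CPM in other cells. UQCRFS1, the Rieske iron-sulphur protein, was lowest at 221, median 845 and highest at 2219 CPM in ectoderm-state cells, against 0, 748 and 1731 CPM in other cells, with a ratio of means of 1.18. UQCRH, the hinge protein, had medians of 689 CPM in ectoderm-state cells and 719 CPM in other cells. UQCRC1, a core protein and the row detected in the fewest cells of this complex, had medians of 613 CPM in ectoderm-state cells and 612 CPM in other cells.

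Complex IV, cytochrome c oxidase, had summed nuclear medians of 4512 CPM in ectoderm-state cells and 4302 CPM in other cells. COX6C was lowest at 412, median 800 and highest at 1350 CPM in ectoderm-state cells, against 358, 760 and 1563 CPM in other cells. The only COX4 row was COX4I2, whose mammalian counterpart is known as the isoform used at low oxygen, and it was detected in 98.9% of cells, with medians of 667 CPM in ectoderm-state cells and 684 CPM in other cells. No value for COX4I1 was analysed here.

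Of the COX7A pair, COX7A2, a subunit of the oxidase, was detected in every cell, with medians of 464 CPM in ectoderm-state cells and 494 CPM in other cells. Its relative COX7A2L was lowest at 0, median 99.0 and highest at 708 CPM in ectoderm-state cells, against 0, 209 and 571 CPM in other cells. COX7A2L reached 10 CPM in 70.4% of ectoderm-state cells and 90.3% of other cells, and its ratio of means of 0.70 was the lowest among the nuclear members, with 0.70 within X09 and 0.90 within X29. It was not called.

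ATP synthase had summed nuclear medians of 10767 CPM in ectoderm-state cells and 10599 CPM in other cells. ATP5F1B, the catalytic beta subunit, was lowest at 624, median 1828 and highest at 6810 CPM in ectoderm-state cells, against 0, 1669 and 3380 CPM in other cells. ATP5A1Z, the alpha subunit, had medians of 1463 CPM in ectoderm-state cells and 1442 CPM in other cells and is taken up again below.

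ATP5MC1 and ATP5MC3 are known in mammals to encode the same mature c subunit, the ring that turns in the membrane. ATP5MC1 had medians of 1219 CPM in ectoderm-state cells and 975 CPM in other cells (ratio of means 1.19), and ATP5MC3 had 1049 CPM in ectoderm-state cells and 1368 CPM in other cells (ratio of means 0.82). The 2 copies thus leaned in opposite directions, in X09 and in X29 alike, by less than the call requires. ATP5S was detected in 29.6% of ectoderm-state cells and 33.9% of other cells and had a median of 0 in both groups. Its SD over the mean was 2.78, the widest of the members.

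Most nuclear members were steady genes. The SD over the mean had a median of 0.424 over the 66 nuclear members, 0.960 over the 13 mitochondrial members and 1.58 over all genes tested. Spread falls with level in such counts, so the comparison was repeated over genes with a mean between 100 and 2000 CPM. The 62 nuclear members in that range had a median of 0.424 and the 1985 genes there a median of 0.833. Level was not matched within that range either, for spread or for detection. The median mean there was 406 CPM for the 62 members and 187 CPM for the 1985 genes. In the lists of related genes, the median was 0.329 for cytosolic ribosomal proteins, 0.719 for mitochondrial ribosomal proteins and 0.858 for the tricarboxylic acid cycle. These lists also differ in level, with median means of 925, 132 and 170 CPM. A detection of at least 10 CPM in 90% of cells or more was reached by 59 of 66 nuclear members (89.4%), against 13.2% of all genes tested. Detection also depends on level: between 100 and 2000 CPM the bar was reached by 91.9% of the 62 nuclear members and 45.7% of the 1985 genes. In every cell, 31 of 66 nuclear members and 263 of the 7651 genes tested were detected. Between 100 and 2000 CPM these counts were 30 of 62 and 228 of 1985.

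**Figure D3:**
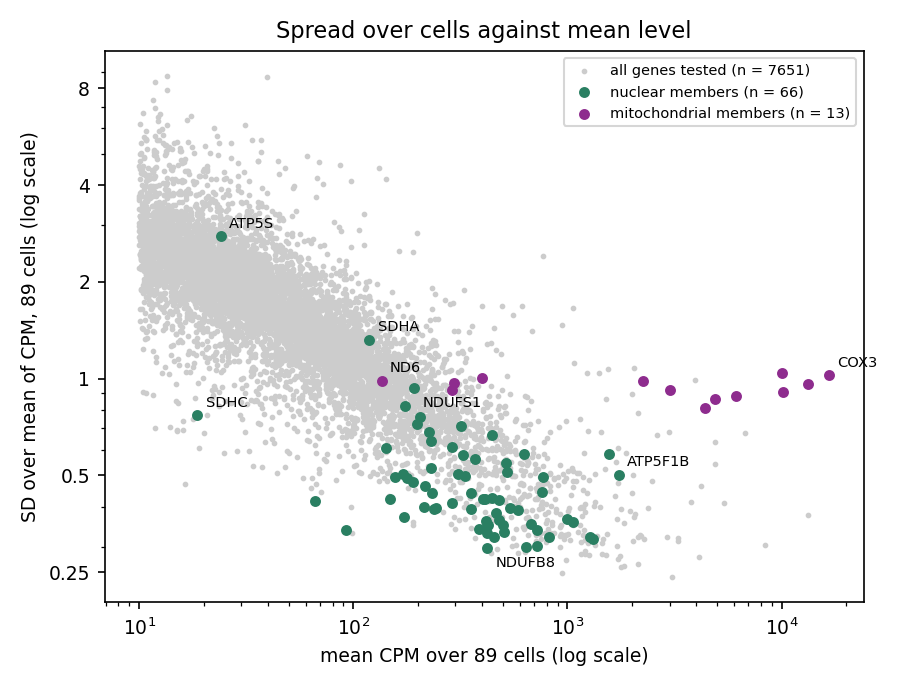
SD over the mean of CPM over 89 cells (log scale) against mean CPM (log scale) for the 66 nuclear members, the 13 mitochondrial members and all 7651 genes tested. Most nuclear members lie along the lower edge of the cloud, with NDUFB8 at 0.297, while the mitochondrial members lie between 0.810 and 1.04 at any level and ATP5S lies at 2.78.

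The median correlation between single nuclear members from cell to cell was low. Over the 89 cells, Spearman's rho had a median of 0.101 over the 2145 pairs of nuclear members, of which 1659 were positive. Between the summed nuclear levels of pairs of complexes it ran from 0.11 (II and IV) to 0.64 (I and IV). The part of counting noise in single genes in the low median was not tested. All these values share each cell's total, and the cells are no replicates, so they are given as a description.

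The mitochondrial members moved as a block. All 78 pairs had a positive rho, with a median of 0.862, and leaving out the 9 parting cells described below left a median of 0.81. Genes that lie next to each other on the mitochondrial genome gave 0.96 for ATP8 and ATP6, 0.96 for ATP6 and COX3 and 0.90 for ND4L and ND4, and the genes of each of these pairs overlap, so that a read in the overlap cannot be given to either gene for certain. Neighbours that do not overlap gave from 0.65 (ND2 and COX1) to 0.93 (ND4 and ND5), apart from the pair with ND6, a range that takes in the value of ND4L and ND4.

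ND6 stood apart from the block. It is the only protein gene known to be read from the light strand, and its median rho with the other members was 0.499, against 0.751 to 0.917 for the median of each of the other 12. Its highest rho was 0.756, with COX1, and its rho with its neighbour CYTB was 0.43. ND6 also drew the smallest median share of mitochondrial reads over all cells, 0.186%. Whether strand or this low number of reads has a part in its rho was not tested. The library kit does not mark strand, so reads of ND6 and reads of transcripts from the opposite strand cannot be told apart. ND6 was lowest at 4.97, median 140 and highest at 599.9 CPM in ectoderm-state cells, against 2.39, 71.5 and 678 CPM in other cells. Its ratio of means was 2.62 within X09 and 0.54 within X29.

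The medians of most genes' shares of the mitochondrial reads were close in the 2 groups. COX3, COX1 and COII, the catalytic core of complex IV, took a median of 24.1, 21 and 14.6% of a cell's mitochondrial reads in ectoderm-state cells, against 21.2, 20.1 and 13.8% in other cells. CYTB, the electron-carrying core of complex III, took 12.5% in ectoderm-state cells and 12.8% in other cells. ATP6, the proton channel subunit of ATP synthase, took 8.2% in ectoderm-state cells and 8.59% in other cells. The complex I genes ND1 and ND4 took 5.54 and 6.45% in ectoderm-state cells, against 6.79 and 6.49% in other cells.

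Of the remaining complex I genes, ND5 took 3.91% in ectoderm-state cells and 4.28% in other cells, and ND2 took 2.98% in ectoderm-state cells and 3.38% in other cells. The short genes ND3, ND4L and ATP8 took medians of 0.52, 0.35 and 0.34% in ectoderm-state cells, against 0.53, 0.35 and 0.40% in other cells. ND6 took 0.237% in ectoderm-state cells and 0.166% in other cells. A cell's distance from the median make-up had a median of 6.78 percentage points in ectoderm-state cells and 6.66 in other cells, but 8.77 in ectoderm-state cells and 6.10 in other cells within X29, and 5.56 in ectoderm-state cells and 6.73 in other cells within X09. Shares of reads grow with gene length, so they are no measure of one gene against another.

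The relation of the 2 sets over cells differed between the prefixes and with the parting cells. Spearman's rho between the summed nuclear and mitochondrial levels was -0.17 over the 89 cells (Pearson's r on log2 values -0.38) and 0.03 over the 80 cells left without the parting cells. Within X09 rho was 0.03 over 58 cells (r -0.14), and within X29 it was -0.46 over 31 cells (r -0.64) and -0.18 over the 27 X29 cells left without the parting cells. With the nuclear set as CPM of nuclear reads the values were 0.13 over 89 cells and 0.34 over 80 cells. The mitochondrial set moved with the spike-in share of reads, with a rho of 0.41 over 89 cells and 0.61 over 80 cells, and with the number of genes with a read, with a rho of -0.27 over 89 cells and -0.47 over 80 cells. Whether the amount of cell RNA has a part in the mitochondrial level was not tested.

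Among the related gene lists, each as CPM of nuclear reads, the nuclear set went with cytosolic ribosomal proteins (rho 0.61) and mitochondrial ribosomal proteins (rho 0.44). Cytosolic ribosomal proteins also went with the mitochondrial set, with a rho of 0.35 over 89 cells, 0.53 within X09 and 0.07 within X29. Mitochondrial ribosomal proteins had a rho of -0.04 with the mitochondrial set over 89 cells. The mitochondrial set went against glycolysis (rho -0.38), the tricarboxylic acid cycle (rho -0.40) and cytochrome c with coenzyme Q synthesis (rho -0.40), all over 89 cells. Within X09 these values were -0.49, -0.49 and -0.48, and within X29 they were -0.26, -0.16 and -0.10, the last 0.04 without the parting cells.

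**Figure D4:**
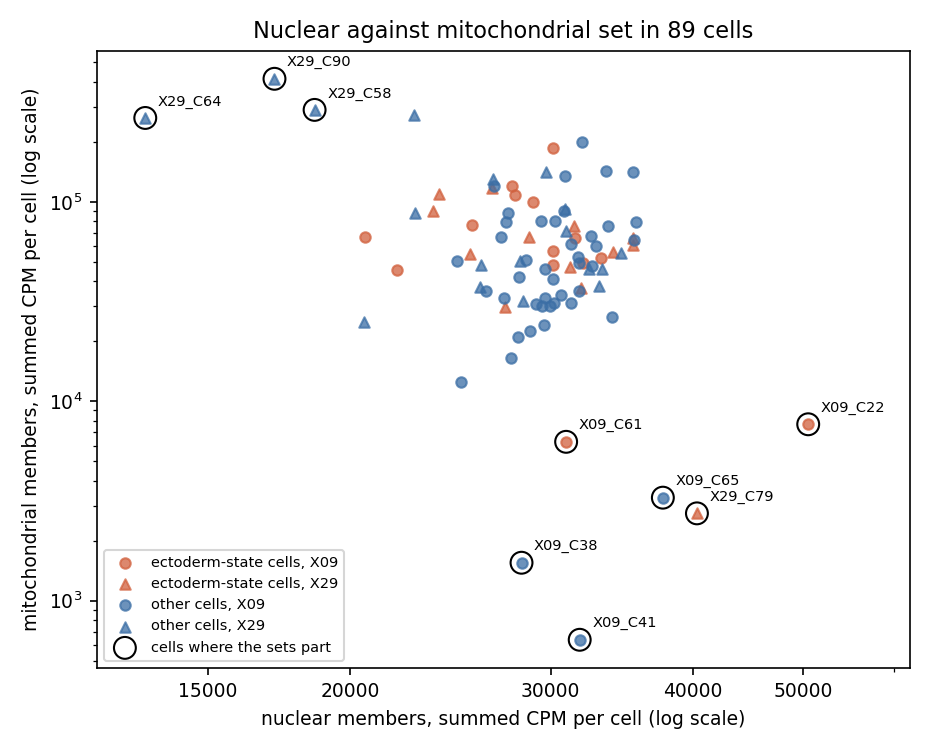
Summed CPM of the 13 mitochondrial members (vertical, log scale) against that of the 66 nuclear members (horizontal, log scale) in each of the 89 cells, coloured by group and shaped by title prefix; rings mark the 9 cells where the sets part. Of the ringed cells, 6 lie at 637 to 7668 CPM of mitochondrial reads and 3 at 263268 to 413741 CPM.

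The 2 sets parted in 9 cells, in which log2 of the mitochondrial over the nuclear level lay more than 1.5 interquartile ranges outside the quartiles, that is under -1.87 or over 3.63. The median over all cells was 0.84. The nearest cells on the inner side were X09_C25 at -1.00 and X29_C41 at 3.58, and the nearest parting cells were X09_C61 at -2.31 and X29_C58 at 3.96. Low mitochondrial reads were seen in 6 cells, 3 of 27 ectoderm-state cells and 3 of 62 other cells (11.1 and 4.84%), and 5 of them carried the X09 prefix. Among the 3 low other cells, X09_C41 had 7 of 10 ectoderm and 3 of 10 mesoderm markers at 10 CPM or more. X09_C65 had 5 and 2, and X09_C38 had 3 and 6. The ectoderm markers include KRT7, KRT18 and KRT19, which did not separate the groups, and X09_C25, which did not part, had 6 and 9. Ectoderm markers summed to 26988.5 CPM in X09_C41, 6037 CPM in X09_C65 and 9460 CPM in X09_C38. Their medians were 11913 CPM in ectoderm-state cells and 9110 CPM in other cells. High mitochondrial reads were seen in 3 cells, all of them X29 and all among the other cells, against 0 of 27 ectoderm-state cells. The exact 95% binomial intervals, which cover counting error only, run from 2.35 to 29.2% for 3 of 27, from 1.01 to 13.5% for 3 of 62 and from 0 to 12.8% for 0 of 27.

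In the 6 low cells the nuclear set lay between 28290 and 50497 CPM. X09_C41 had 637 CPM of mitochondrial reads beside 31820 CPM of nuclear members, X09_C38 had 1550 beside 28290 CPM, and X29_C79, an ectoderm-state cell, had 2742 beside 40327 CPM. X09_C65 had 3286 beside 37643 CPM, and the ectoderm-state cells X09_C61 and X09_C22 had 6262 beside 30959 CPM and 7668 beside 50497 CPM. These cells were chosen by the ratio of the sets, so low mitochondrial and high nuclear ranks are favoured by their choice. They were the lowest 6 of the 89 for the mitochondrial set. For the nuclear set, 3 of them, X09_C22, X29_C79 and X09_C65, ranked highest. X09_C41, X09_C61 and X09_C38 ranked 66, 56 and 32 of 89 there, counted from the lowest.

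In most of the 6 low cells the make-up of the mitochondrial reads lay outside the range of the cells that did not part. X09_C41 had 876 mitochondrial reads, of which CYTB took 52.5% (exact 95% interval 49.1 to 55.9%) and COX3 took 0.571%. In X09_C65 it was COX3 that took 40.7% and CYTB 1.07%, and in X09_C38 COX1 took 29.9% and ATP6 16.2%. The 6 low cells differed from the median make-up by 12.3 to 46.5 percentage points of reads, against 3.04 to 17.1 points in the 80 cells where the sets did not part. X09_C61, with 9478 mitochondrial reads, lay within the range of those 80 cells, at 12.3 points. Between 7 and 11 of the 13 members reached 10 CPM in the 6 low cells.

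Glycolysis stood high in the same 6 cells, though not in them alone. The 17 genes of the list summed to 26985 to 38835 CPM of nuclear reads in them (median 30188), against a median of 18916 and a highest value of 29267 CPM in the 80 cells where the sets did not part, so the groups overlapped at their edges. Of the cells with high mitochondrial reads, X29_C58 had 25027 and X29_C90 had 22106 CPM, also above that median, and X29_C64 had 10940.5 CPM. X29_C41, the nearest inner cell on the high side, had 28286 CPM. The tricarboxylic acid cycle list had a median of 4931 CPM of nuclear reads in the low cells and 3779 CPM in the 80 cells. The low cells had 939021 to 1810535 reads, 2550 to 4712 genes with a read and 5.95 to 17.6% spike-in reads, against medians of 5580 genes and 5.09% spike-in reads over all 89 cells, and the part of cell RNA amount or cell quality in these values was not tested.

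The 3 high cells were chosen by the ratio of the sets, so a low nuclear level is part of their choice. X29_C58 had 288961 CPM of mitochondrial reads beside 18621 CPM of nuclear members, X29_C64 had 263268 beside 13225 CPM, and X29_C90 had 413741 beside 17171 CPM. These were the 3 lowest nuclear levels of the 89 cells. As CPM of nuclear reads, the nuclear set was 26189 in X29_C58, 17951 in X29_C64 and 29290 in X29_C90, and the median of the 80 cells was 31614.

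The mitochondrial make-up of the high cells lay near the median, at 6.58 to 7.12 percentage points from it, and all 13 mitochondrial members were detected. Between 49 and 53 of the 66 nuclear members reached 10 CPM, against a median of 64 in the 80 cells, and 10, 11 and 14 had no read in X29_C58, X29_C64 and X29_C90. SDHA had no read in X29_C64 and X29_C90, and none in the low cells X09_C22, X09_C38 and X09_C65 either. ATP5F1B had none in X29_C90. In the low cells, the number of nuclear members with no read ran from 1 in X09_C41 to 7 in X09_C65. The high cells had 453090 to 783935 reads, 2394 to 4093 genes with a read and 14.4 to 18.6% spike-in reads. The part of cell RNA amount or cell quality in the values of the high cells was not tested. X29_C64 also had 7 of 10 endothelial markers at 10 CPM or more and 0 of 10 ectoderm and 0 of 10 mesoderm markers, and the other high cells had at most 2 endothelial markers.

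Without the parting cells the mitochondrial set had a ratio of medians of 1.32 between ectoderm-state and other cells, with 1.34 within X09 and 1.26 within X29, and the ratio of means within X29 was 0.863. The nuclear set had a ratio of medians of 0.99, and the count of members called was again 0 of 79.

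Genes that work with the respiratory chain were compared between the groups by the same rule, by which 10.3% of all genes tested were called higher and 11.6% lower. No gene was called among 7 carriers and channels of the mitochondrial membranes, 16 genes of protein import and cristae, 18 genes of the tricarboxylic acid cycle or 71 cytosolic ribosomal proteins. Among 34 assembly factors of the respiratory chain 1 was called higher in ectoderm-state cells: ACAD9, which helps to assemble complex I, averaged 254 ± 181 CPM in ectoderm-state cells and 125 ± 108 CPM in other cells (SD over cells), a ratio of 2.02. Among 13 genes of cytochrome c and coenzyme Q synthesis, COQ10B was called higher (25.9 CPM in ectoderm-state cells and 12.3 CPM in other cells on average) and COQ3, a methyltransferase of the quinone, lower (27.8 CPM in ectoderm-state cells and 72 CPM in other cells).

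In the list of genes that remove superoxide and peroxide, PRDX1, a cytosolic peroxidase, was called higher and averaged 7954 ± 1675 CPM in ectoderm-state cells and 3524 ± 1658 CPM in other cells, a ratio of 2.26 that was 2.26 within X09 and 2.21 within X29. GPX1, a glutathione peroxidase, was called higher and averaged 691 ± 366 CPM in ectoderm-state cells and 295 ± 192 CPM in other cells. TXNRD2, the mitochondrial thioredoxin reductase, was called lower, at 5.55 CPM in ectoderm-state cells and 38.8 CPM in other cells. It passed the filter on a mean of 10 CPM only through the other cells. PRDX1, GPX1 and TXNRD2 were 3 of 10 genes tested in that list. SOD1, the cytosolic superoxide dismutase, was not called and averaged 742 CPM in ectoderm-state cells and 938 CPM in other cells.

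Genes known to respond to low oxygen were called in both directions, with 3 of 13 higher and 3 lower, against 10.3% higher and 11.6% lower of all genes. The list also holds COX4I2, a member described above, which was not called. NDRG1 averaged 257 ± 515 CPM in ectoderm-state cells and 41 ± 104 CPM in other cells, EPAS1 153 ± 202 CPM in ectoderm-state cells and 56.6 ± 195 CPM in other cells, and CA9, a carbonic anhydrase, 68.9 ± 108 CPM in ectoderm-state cells and 26.2 ± 56.2 CPM in other cells. VEGFA, an endothelial growth factor, was lower at 2.20 CPM in ectoderm-state cells and 21.6 CPM in other cells, and P4HA1 and KDM3A were lower as well. VEGFA passed the filter on a mean of 10 CPM only through the other cells. In glycolysis 1 of 15 genes was called: GPI, which isomerises glucose 6-phosphate, was lower at 380 ± 289 CPM in ectoderm-state cells and 747 ± 403 CPM in other cells.

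Of 68 mitochondrial ribosomal proteins MRPL10 and MRPS6 were called higher and MRPL1 lower in ectoderm-state cells. Of 19 genes for the upkeep and transcription of mitochondrial DNA and its regulators, PPRC1, a coactivator, was called lower at 7.50 CPM in ectoderm-state cells and 19.9 CPM in other cells. PPRC1 passed the filter on a mean of 10 CPM only through the other cells. SSBP1, which binds single-stranded mitochondrial DNA, had 284 CPM in ectoderm-state cells and 357 CPM in other cells and was not called. Of 7 genes of mitochondrial stress and apoptosis, LONP1, a matrix protease, and BAK1, which opens the outer membrane, were called lower.

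Wpkci-7 (HINTW) is a gene of the W chromosome, which only female birds carry, and it split the cells without overlap. It was at most 39.1 CPM in 43 cells (33 X09 and 10 X29) and at least 663 CPM in 46 cells (25 X09 and 21 X29). This comparison was chosen after the data were seen. By the call rule used above, 4 of 66 nuclear members were called higher in Wpkci-7-negative cells and 0 lower, and 0 of 13 mitochondrial members were called, whereas 9.59% of the 7651 genes tested were called, 4.42% higher and 5.18% lower in Wpkci-7-negative cells. As a share, the nuclear members called are near that of all genes.

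The 4 members were ATP5A1Z, ATP5ME, COX7C and NDUFS4. The first is by its symbol the Z-linked copy of the alpha subunit of ATP synthase, and COX7C and NDUFS4 are also known as genes of the chicken Z chromosome, of which male birds carry a pair and female birds a single copy. The chromosomes of ATP5ME and of the members not called were not looked up. Whether Z linkage has a part in these calls was therefore not tested. ATP5A1Z has a relative on the W chromosome that could share reads with it. ATP5ME is a small membrane subunit of ATP synthase, COX7C a small subunit of cytochrome c oxidase and NDUFS4 a subunit that completes the peripheral arm of complex I.

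ATP5A1Z was lowest at 445, median 2046 and highest at 4960 CPM in Wpkci-7-negative cells, against 20.6, 1088 and 2230 CPM in Wpkci-7-positive cells. The groups overlapped, but 32 of 43 negative cells and 12 of 46 positive cells lay above the median of all cells, 1446 CPM. The ratio of means was 1.93, with 1.76 within X09, 2.22 within X29, 2.05 among ectoderm-state cells and 1.88 among other cells.

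COX7C was lowest at 386, median 977 and highest at 2245 CPM in Wpkci-7-negative cells, against 96.0, 511 and 1273 CPM in Wpkci-7-positive cells, a ratio of means of 1.92, and 36 of 43 negative cells and 8 of 46 positive cells lay above the common median. NDUFS4 was lowest at 49.4, median 301 and highest at 774 CPM in Wpkci-7-negative cells, against 0, 126 and 412 CPM in Wpkci-7-positive cells, a ratio of means of 2.13. ATP5ME was lowest at 163, median 413 and highest at 979 CPM in Wpkci-7-negative cells, against 64.4, 206 and 502 CPM in Wpkci-7-positive cells, a ratio of means of 1.85. For NDUFS4 and for ATP5ME, 34 of 43 negative cells and 10 of 46 positive cells lay above the common median. The overlap of the groups was partial for all 4 genes.

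ATP5F1B, the beta subunit that pairs with the alpha subunit in the same enzyme, had a ratio of means of 0.973 between Wpkci-7-negative and Wpkci-7-positive cells. The ATP5F1B ratio changed direction between subsets, with 0.896 within X09, 1.11 within X29, 1.21 among ectoderm-state cells and 0.871 among other cells. The nuclear set without the 4 called members averaged 27446 CPM in Wpkci-7-negative cells and 25912 CPM in Wpkci-7-positive cells, a ratio of 1.06 that was 1.0 within X09 and 1.16 within X29. The 3 high cells were all Wpkci-7-positive. Of the low cells, those with the X09 prefix were all Wpkci-7-negative and X29_C79 was positive. Both ends of the range of ATP5A1Z lay in parting cells, 20.6 CPM in the high cell X29_C90 and 4960 CPM in the low cell X09_C22. Without the 9 parting cells the same 4 members were called, and the ratio for ATP5A1Z was 1.68.

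**Figure D5:**
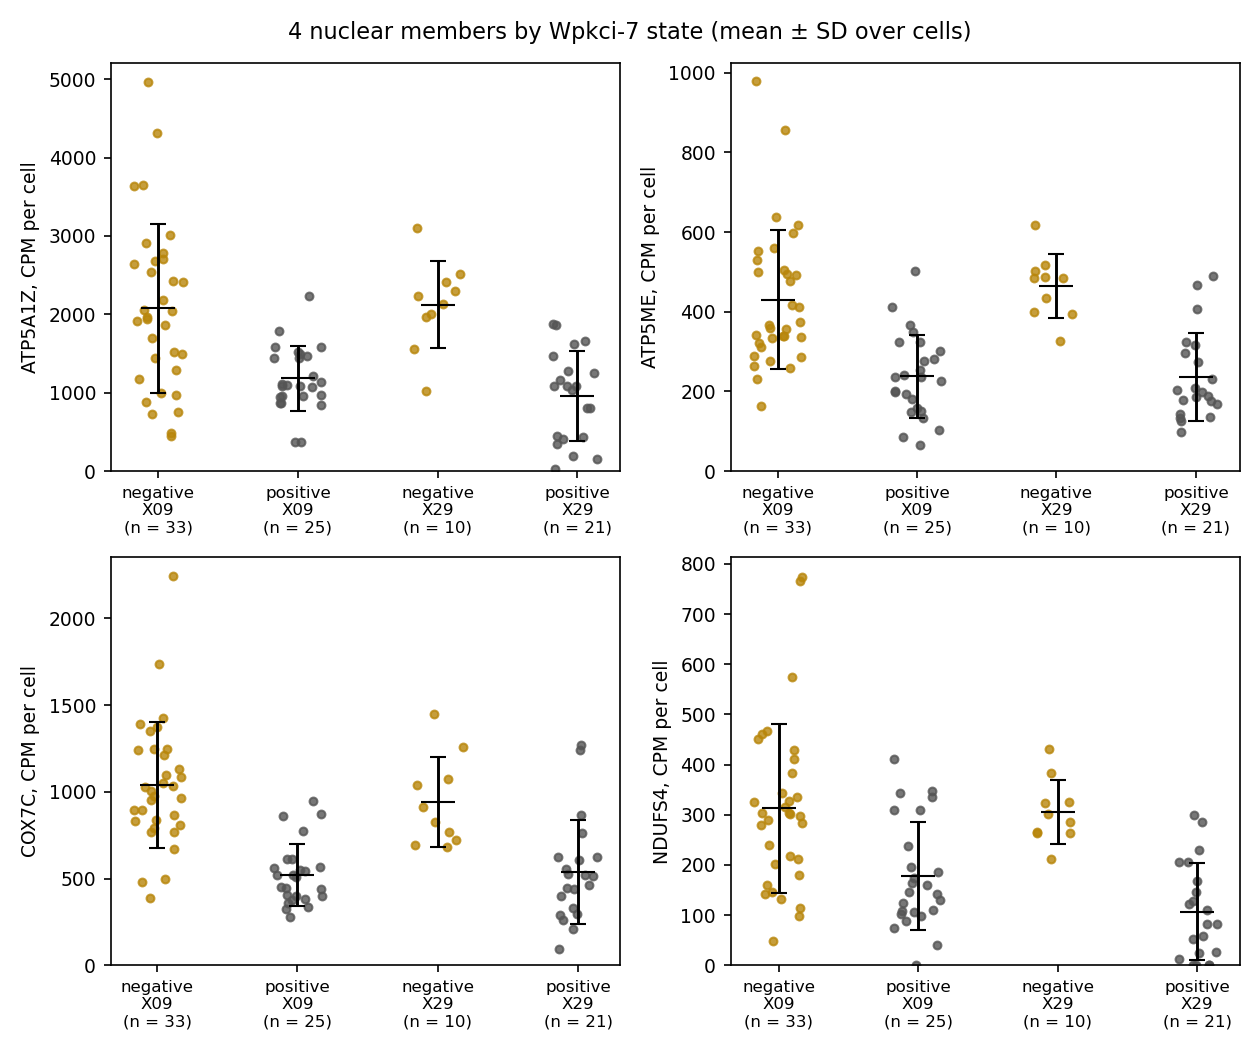
CPM per cell of ATP5A1Z, ATP5ME, COX7C and NDUFS4 in Wpkci-7-negative and Wpkci-7-positive cells of the X09 and X29 titles; points are cells and bars the mean ± SD over cells. The 4 genes were chosen by the call, which requires the same direction in both prefixes, so the higher means of the negative cells are part of their choice. The cells overlap in part.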

How the data were processed

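The deposited table held raw counts of reads per gene in 89 cells. The authors aligned reads with HISAT2 2.1.0 to GRCg6a and counted them with featureCounts, per the submitters' processing notes. Settings: not given in the sources used here. From the 13826 rows, 3 spike-in rows were left out, and counts were divided by each cell's total of gene rows to give CPM. No molecular identifiers were used, so intervals cover counting error only. Cells form 1 pooled sample, so no test was made and groups of cells were compared by ratios of means with 1 CPM added, over genes with a mean of at least 10 CPM. CPM values are not divided by transcript length, so an order of genes or complexes by CPM is one of reads drawn and not of transcripts. Reads of near-identical copies, such as nuclear copies of mitochondrial DNA, could be split or shared by the counting.

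The members, gene lists and groups were chosen with earlier results of these data known. Named were all mitochondrial members, in each complex the 3 nuclear members with the most reads, every called member and the one detected in the fewest cells, paralogue pairs, and called members of related lists. Rows under Ensembl identifiers were not paired with symbols and were not searched for members. The order of mitochondrial genes came from the RefSeq annotation of GRCg7b. The code was tested on simulated data. Python 3.11.15, numpy 2.4.6, pandas 2.3.3, scipy 1.17.1 and matplotlib 3.10.9 were used, with edgeR 4.0.16 in R 4.3.3 for TMM factors as an alternative. Other totals, filters, thresholds, thinning and cells left out were tried as well.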

Additional observations from a re-analysis of the deposited data

How the results depend on the processing

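The alternative settings gave 125 values, many of them from the same setting, so they are not separate checks. Of these, 105 stayed within bounds, namely 1.5 times the main value (0.2 for a correlation), and 20 did not. A summed level also had to stay within the SD over cells. The summed levels, their spread, the ratios of medians of ectoderm-state over other cells and the ratio of ATP5A1Z (1.68 to 2.22) stayed within bounds in all of theirs, but the ratio of medians of the mitochondrial set, 1.21, was 0.957 in X29 alone, and its ratio of means, 0.898, was 0.526 there. The count of members called between ectoderm-state and other cells was 0, but 1 with cells thinned to 328645 reads (COX7A2L), 1 with ratios of medians (SDHA), 2 in X09 cells alone (COX1 and ND6) and 16 in X29 cells alone (12 of them mitochondrial), where a gene need pass in 1 prefix only. Leaving out each cell gave 0 to 1, the 1 being ATP5S without X09_C39. The count of all genes called was 1677, but 3652 in X09 alone, 4153 in X29 alone, 3254 with no filter, 535 with a mean of at least 50 CPM and 984 at a fold of 2, and 1644 to 1729 when each cell was left out. Between Wpkci-7 groups the 4 members became 8 in X09 alone, 16 in X29 alone and 0 at a fold of 2, and 4 to 5 when each cell was left out. The 9 parting cells became 5 without the 5 cells under 3000 genes, 5 in X09 alone, 2 in X29 alone and 2 at a fence of 3 interquartile ranges. The cells under 3000 genes were the parting cells X09_C22, X09_C65, X29_C58 and X29_C90 and X29_C41, the nearest inner cell on the high side. The correlation of the sets, -0.17, became 0.13 per nuclear reads, 0.12 with TMM factors, -0.46 in X29 alone and 0.032 without the parting cells. The cause of these changes was not tested. No paired analysis was possible because all cells form 1 group with no labelled pairs. Depth limits the genes of low level, SDHC and ATP5S among the members and TXNRD2, VEGFA and PPRC1 among the related genes called. It also limits the make-up of mitochondrial reads in the low cells, X09_C41 above all with 876.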
